A study of Mus musculus with 28 samples.

Results

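The comparison set the cortex of Rbm5 knockout (KO) mice against that of wild type (WT) mice, over sham and injured animals, with injury held as a block. It used 28 of the 28 arrays of the series, 14 KO and 14 WT, chosen by the genotype and procedure in their titles. The groups were KO sham, WT sham, KO CCI and WT CCI, with 7 animals each, aged 12 to 15 weeks. CCI is controlled cortical impact, a piston blow to the exposed brain after a craniotomy over the left parietal cortex, and sham animals had anaesthesia and no craniotomy. Cortical tissue was taken 48 h later from animals of both sexes, after perfusion with cold saline. Females numbered 3 in KO sham and 4 in each of the other groups. The labels give neither the strain nor the way the knockout allele was made, so differences that belong to the strain background or to genes linked to the allele cannot be told apart from those of Rbm5 loss.

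RBM5 is a nuclear RNA-binding protein that joins early spliceosomes and influences which splice sites are paired. It is known for changing the inclusion of exons in transcripts of cell death genes such as Fas, Cflar and Casp2, and its gene lies beside the related Rbm6. Each value here is the log2 signal of a transcript cluster, a set of array probes that reports 1 transcribed locus. A change in exon use that leaves the total signal of a locus alone is therefore not seen. The tissue was bulk cortex, in which fewer cells of a type and less RNA per cell cannot be told apart.

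Rbm5 was lower on every KO array. Its log2 signal lay between 9.66 and 9.84 (median 9.75) on KO arrays, against 10.59 and 10.82 (median 10.72) on WT arrays. The pooled difference was -0.97 (SE 0.027, 1.95-fold, limma adjusted p = 2.4e-19). In sham animals the difference was -1.02 and after CCI it was -0.91, and the difference between the conditions did not pass the test (limma unadjusted p = 0.065). Nothing in the labels places the probes relative to the deleted part of the gene, so the remaining signal is no measure of remaining protein.

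At an adjusted p under 0.05, limma called 2081 of 65956 transcript clusters (3.16%) in the pooled comparison, with 897 higher in KO (1.36%) and 1184 lower (1.8%). The differences were small. Their absolute log2 size had a median of 0.24 and ranged from 0.081 to 1.07, and 18 of the higher and 68 of the lower ones reached 1.5-fold. In sham alone 847 were called (1.28%), 335 higher (0.508%) and 512 lower (0.776%). The sham count was 438 without KO sham 11, 447 without KO sham 12, 488 without WT sham 2, 520 without WT sham 26, 524 without WT sham 1 and 557 without WT sham 27. For the CCI difference 431 were called (0.653%), 149 higher (0.226%) and 282 lower (0.428%). Both of these comparisons called 243 clusters. Of the 2081, 1149 passed in neither and were called by the pooled test, which averages over more arrays.

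No transcript cluster was called for a genotype difference that depended on injury (0 of 65956, 0%), with 4097 at an unadjusted p under 0.05. None was called for one that depended on sex (0 of 65956, 0%), with 3693 at an unadjusted p under 0.05. A difference was counted as the same size in both conditions where it was called in the pooled test, had 1 sign in sham and CCI, the smaller was at least 0.5 of the larger, and the 95% interval of the dependence on injury included 0. This held for 1668 of the 2081 (80.2%), 713 higher and 955 lower. Of the remainder, 117 had an unadjusted p under 0.05 for dependence on injury and 1 had opposite signs. The pooled test averages both conditions, so being called by it favours like signs and like sizes. The share expected from that choice alone was not computed. The ratio of the CCI to the sham difference had a median of 0.86 (quartiles 0.638 and 1.18), and 1325 of 2081 differences (63.7%) were larger in sham.

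**Figure D1:**
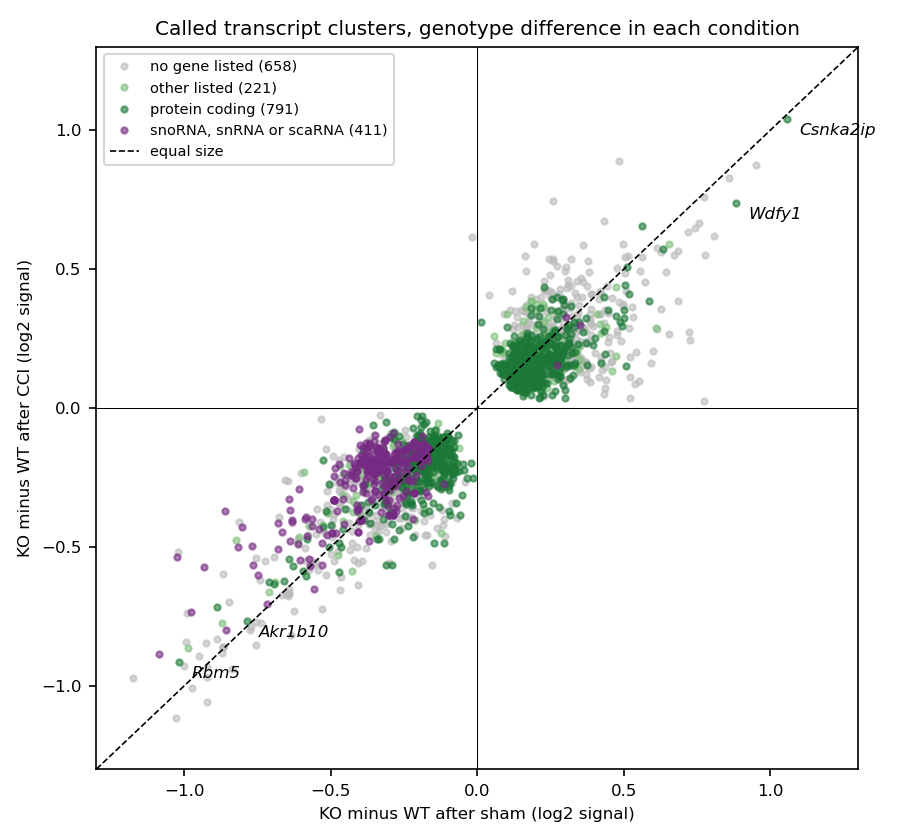
Genotype difference after CCI (vertical axis, KO minus WT, log2 signal) against that after sham (horizontal axis, same units) for the 2081 called transcript clusters, coloured by annotated class, with the line of equal size dashed. Nearly all points lie at the upper right or lower left, which the choice of clusters by the average of both conditions favours. The small RNAs lie almost wholly at the lower left and mostly above the dashed line, and Csnka2ip and Rbm5 lie near the ends.

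Csnka2ip had the largest rise among genes that are neither small RNAs nor predicted or numbered gene models. It encodes a casein kinase 2 interacting protein known from testis. Its log2 signal lay between 6.45 and 6.79 in KO sham (median 6.61), against 5.18 and 5.99 in WT sham (median 5.58). After CCI it lay between 6.22 and 6.65 in KO (median 6.57), against 5.06 and 5.71 in WT (median 5.48). Every KO array was thus above every WT array, by 1.05 on average (SE 0.077, adjusted p = 7.03e-10). All WT signals, the median of 6.57 over KO arrays and the mean of 6.03 over all arrays lay below 6.64. That value is the median of the array's own negative control probes, so the 2.07-fold difference is not an exact fold.

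Wdfy1, which encodes an endosomal FYVE-domain protein of Toll-like receptor signalling, lay above that median on every array. Its signal was 9.02 ± 0.12 in KO sham and 8.15 ± 0.07 in WT sham, and 8.99 ± 0.14 in KO CCI and 8.25 ± 0.11 in WT CCI (SD, n = 7 each). KO arrays ran from 8.81 to 9.20, against 8.05 to 8.43 for WT arrays, so the genotypes did not overlap. The pooled difference was 0.81 (SE 0.044, 1.75-fold, adjusted p = 1.63e-12), with 0.88 in sham and 0.74 after CCI. The negative control probes spread widely, and their 95th percentile lay between 10.16 and 10.43 on the arrays. All signals of Wdfy1, and of Mpi, Afg3l1, Akr1b10 and Prkab2 described below, were under that percentile.

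Mpi, the isomerase that links mannose to glycolysis, also separated the genotypes. It was 9.22 ± 0.16 in KO sham and 8.60 ± 0.08 in WT sham, and 9.20 ± 0.10 in KO CCI and 8.62 ± 0.05 in WT CCI (SD, n = 7 each). The pooled difference was 0.60 (SE 0.041, adjusted p = 1.58e-10) and every KO array was above the highest WT array, at 8.71. Nvl, a nuclear ATPase of large ribosomal subunit assembly, rose by 0.51 in sham and by 0.51 after CCI (pooled SE 0.045, adjusted p = 2.17e-08). Its mean was lower after CCI in both genotypes, with 11.71 ± 0.08 in KO sham and 11.19 ± 0.06 in WT sham, and 11.39 ± 0.11 in KO CCI and 10.88 ± 0.18 in WT CCI. Afg3l1, a subunit of the mitochondrial m-AAA protease, rose by 0.40 (SE 0.033, adjusted p = 7.38e-09) with no overlap, although the lowest KO array (8.061) and the highest WT array (8.057) were close.

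**Figure D2:**
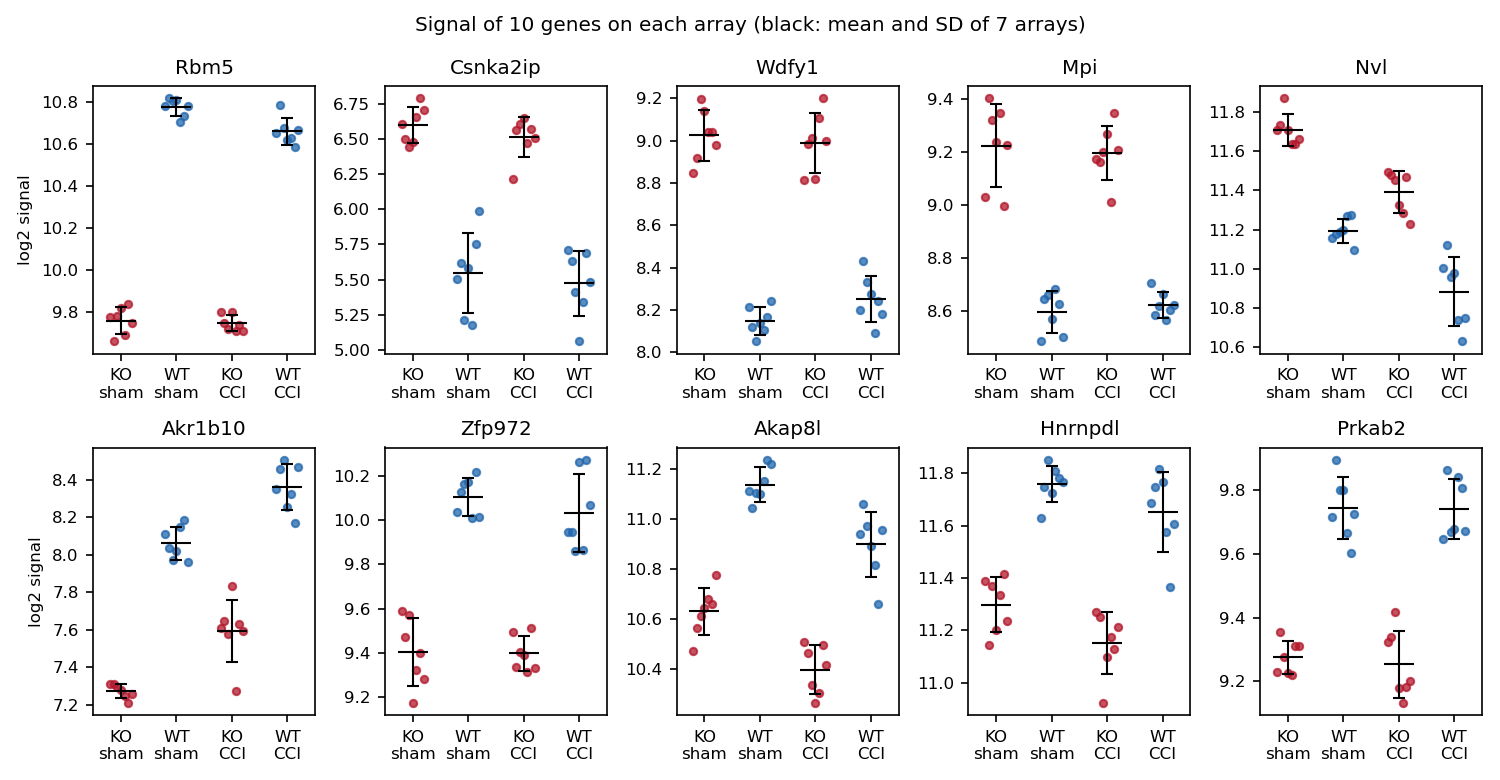
Log2 signal of 10 genes on each of the 28 arrays (points), in KO sham, WT sham, KO CCI and WT CCI, with the mean and SD of 7 arrays in black. Each vertical axis has its own range. Csnka2ip, Wdfy1, Mpi and Nvl are higher in KO and the other 6 genes, Rbm5 among them, are lower in KO, by a similar distance after sham and after CCI, also where the level itself shifts with injury, as in Nvl, Akr1b10 and Akap8l.

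Other genes with large rises included enzymes and secreted proteins. Pnck, a calcium- and calmodulin-dependent kinase, ranged from 9.12 to 10.13 (median 9.70) on KO arrays, against 8.86 to 9.56 (median 9.04) on WT arrays (difference 0.61, adjusted p = 0.000144). It differed by 0.79 in females and 0.38 in males, a gap that was not called after adjustment (adjusted p = 0.868). Itih3, a hyaluronan-binding heavy chain of the inter-alpha-trypsin inhibitors, rose by 0.47 (adjusted p = 0.0084), and Sfrp1, a secreted Wnt antagonist, by 0.46 (adjusted p = 0.0055). Akr1c18, which inactivates progesterone, rose by 0.42 (SE 0.11, adjusted p = 0.0241). Cttnbp2, a cortactin-binding protein of dendritic spines, rose by 0.40, with 12.39 ± 0.10 in KO sham and 11.91 ± 0.06 in WT sham. The transglutaminase Tgm3 (0.49), the acyltransferase-like Oacyl (0.43) and the calpain family member Capn6 (0.41) rose as well, but their mean signals of 6.58, 6.23 and 6.01 lay below the negative control median.

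Akr1b10, an aldo-keto reductase, had the largest fall among genes other than Rbm5 that are neither small RNAs nor predicted or numbered gene models. It was 7.27 ± 0.04 in KO sham and 8.06 ± 0.09 in WT sham, and 7.60 ± 0.17 in KO CCI and 8.36 ± 0.12 in WT CCI (SD, n = 7 each). The highest KO array, at 7.83, was below the lowest WT array, at 7.96. The pooled difference was -0.78 (SE 0.045, adjusted p = 4.85e-12), with -0.79 in sham and -0.77 after CCI. Chrdl1, a secreted BMP antagonist made by astrocytes, fell by 0.60 (SE 0.064, adjusted p = 6.11e-07), with 7.32 ± 0.13 in KO sham and 7.94 ± 0.11 in WT sham, and 8.02 ± 0.23 in KO CCI and 8.59 ± 0.19 in WT CCI. Both genes had higher means after CCI than after sham in each genotype.

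Rasgrf2, a calcium-activated exchange factor for Ras that marks upper-layer neurons, fell by 0.59 (SE 0.069, adjusted p = 2.48e-06). It lay between 11.39 and 11.72 in KO sham, against 12.07 and 12.21 in WT sham, and between 10.54 and 11.44 in KO CCI, against 11.37 and 11.82 in WT CCI. The sham groups did not overlap and the CCI groups did. Prkab2, a regulatory subunit of the energy-sensing kinase AMPK, fell by 0.48 (SE 0.037, adjusted p = 1.55e-09) and ran from 9.13 to 9.42 on KO arrays, against 9.60 to 9.89 on WT arrays. Akap8l, a nuclear anchoring protein for protein kinase A, fell by 0.50 (SE 0.040, adjusted p = 3.57e-09), by 0.51 in sham and by 0.50 after CCI. Emb, an immunoglobulin-family partner of monocarboxylate transporters, fell by 0.45 (adjusted p = 1.49e-05). Pcdhb6, 1 of a family of similar protocadherins whose probes may share sequence, fell by 0.46 (adjusted p = 0.00236). An earlier analysis of these data had named 7 arrays with raised striatum or choroid plexus markers, WT sham 25, WT CCI 13, 14, 16 and 35, and KO CCI 22 and 40. Leaving these 7 out, Pcdhb6 differed by -0.30 and was not called, and neither were Sfrp1 and Akr1c18.

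Complete separation of the genotypes over all 28 arrays was rare. All 14 KO arrays lay above all 14 WT arrays for 20 of 65956 transcript clusters (0.0303%), and below them for 47 (0.0713%). Protein-coding genes made up 15 of the 20 and 15 of the 47. The genes named next were picked from these after their values were seen. Atr, the kinase of replication stress, ran from 8.17 to 8.45 on KO arrays, against 7.89 to 8.14 on WT arrays (difference 0.27, adjusted p = 1.63e-07). Baz1b, a chromatin remodelling subunit, rose by 0.25 (adjusted p = 2.3e-06), Thoc2, of the complex that couples transcription to mRNA export, by 0.22 (adjusted p = 4.77e-06), and Rprd1b, which binds the tail of RNA polymerase II, by 0.25 (adjusted p = 3.39e-05). Invs, a ciliary protein, rose by 0.30 (adjusted p = 6.49e-07).

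Among the separated genes that fell was Smg1, the kinase that starts nonsense-mediated mRNA decay. It ran from 11.03 to 11.22 on KO arrays, against 11.30 to 11.53 on WT arrays (difference -0.27, adjusted p = 1.81e-07). Macrod2, an ADP-ribosylhydrolase, fell by 0.37 (adjusted p = 2.25e-07), Odf2, a centriole appendage protein, by 0.37 (adjusted p = 8.27e-08), and Map3k12, a kinase of axon injury signalling, by 0.27 (adjusted p = 4.28e-06). Ap3b1, a subunit of the AP-3 coat, fell by 0.20 (adjusted p = 7.43e-05), while Ap4e1 of the AP-4 coat rose by 0.18 (adjusted p = 4.5e-05). Mcoln1, a lysosomal cation channel, fell by 0.28 (adjusted p = 4.6e-05). Spg7, which like Afg3l1 forms part of the m-AAA protease, fell by 0.13 (adjusted p = 0.0011) while Afg3l1 rose. Nnt, the mitochondrial transhydrogenase, overlapped between genotypes and rose by 0.25 (adjusted p = 0.00345). It is known to differ between substrains of C57BL/6, and the labels name no substrain. The part of strain background in any of these values was not tested.

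RNA processing genes were described by lists. Of 49 measured core spliceosome genes, 5 rose and none fell, and the list median was 0.035, beside 0.00031 over all coding clusters, of which 4.1% were called. The list median was 0.059 in sham and -5.6e-05 after CCI. The 5 were Sf3b3 and Dhx15 with Snrnp70 (0.17), Slu7 (0.11) and Prpf40b (0.09). Dhx15, the helicase that takes spent spliceosomes apart, was 11.27 ± 0.09 in KO sham and 10.95 ± 0.04 in WT sham, and 11.36 ± 0.08 in KO CCI and 11.08 ± 0.07 in WT CCI (SD, n = 7 each). Its pooled difference was 0.30 (SE 0.027, adjusted p = 3.96e-08). Sf3b3, a U2 snRNP subunit, rose by 0.30 (SE 0.042, adjusted p = 3.54e-05), with 10.07 ± 0.03 in KO sham and 9.69 ± 0.06 in WT sham, and 10.22 ± 0.12 in KO CCI and 9.98 ± 0.17 in WT CCI. Among the arrays titled with numbers 1 to 24, 2 of the 49 were called, and among those numbered 25 to 42, 0 were.

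Of 37 SR and hnRNP regulators, 5 rose and 1 fell, beside 4.1% called among all coding clusters. The list median was 0.033, with 0.043 in sham and 0.013 after CCI. Srrm1, a coactivator of splicing that binds SR proteins, ran from 10.62 to 10.94 on KO arrays, against 10.27 to 10.59 on WT arrays, with no overlap (difference 0.32, adjusted p = 5.8e-07). Clk1 and Clk4, kinases that phosphorylate SR proteins, rose by 0.27 (adjusted p = 0.000339) and 0.22 (adjusted p = 0.0015). Srsf6 rose by 0.15 and Srsf5 by 0.14. Srek1, an SR-related protein picked after its values were seen, rose by 0.15 with no overlap (adjusted p = 0.00114). The 1 that fell, Hnrnpdl, had the largest difference of the list, at -0.48 (SE 0.045, adjusted p = 4.59e-08), with 11.30 ± 0.10 in KO sham and 11.76 ± 0.07 in WT sham, and 11.15 ± 0.12 in KO CCI and 11.65 ± 0.15 in WT CCI. Among 26 neuronal splicing regulators, Celf1 rose by 0.12 (adjusted p = 0.0141) and Nova1 fell by 0.22 (adjusted p = 0.0205), a call not made with the 7 arrays left out. Among 36 genes of the RBM family, Rbm28 rose by 0.18 (adjusted p = 0.0469), which missed the threshold when any 1 of 19 arrays was left out (adjusted p up to 0.0879), and Rbm5 fell. Cytosolic ribosomal proteins had 20 of 20 measured genes with positive differences (median 0.074) and 2 called, Rps15 and Rps24, both of which were larger in sham. The list median was 0.17 in sham and 0.0044 after CCI.

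Rbm6, beside Rbm5 on chromosome 9, differed by 0.04 (adjusted p = 0.487). The transcripts known as targets of RBM5 splicing control differed by 0.0064 for Casp2 (adjusted p = 0.959), -0.02 for Fas (adjusted p = 0.939) and 0.06 for Cflar (adjusted p = 0.611), in total signal. The mean Fas signal of 6.13 lay below the negative control median, so a difference in Fas may not have been detectable. The Rbm10 cluster listed several genes and is not reported. Of the 50 coding and lncRNA genes nearest to Rbm5, 25 on each side, 0 were called, beside 3.75% of all 22403 such genes. Of the nearest 100, 3 were called, all lower. These were Dalrd3 (-0.35, adjusted p = 0.00303), P4htm (-0.33, adjusted p = 1.37e-06) and Celsr3 (-0.17, adjusted p = 0.0119), a planar polarity cadherin. They were also the 3 called in a list of 70 chromosome 9 neighbours.

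Small nuclear and nucleolar RNAs were the classes with the highest shares called. Box C/D and H/ACA snoRNAs guide chemical modification of ribosomal and spliceosomal RNA, scaRNAs do so in Cajal bodies, and snRNAs form the spliceosome's own core. Of 957 snoRNA clusters 207 were called (21.6%), 205 of them lower. Of 926 snRNA clusters 200 were called (21.6%), 199 lower, and of 37 scaRNA clusters 4 were called, all lower. Of 925 miRNA clusters 9 were called (0.973%). The median over all snoRNA clusters was -0.025, over snRNA clusters -0.080 and over all 65956 clusters -0.0010, so the class medians were small beside the called differences. Many small RNA clusters are near-identical copies with shared probes, so the shares above count some profiles more than once. The called snoRNAs had 115 distinct profiles over arrays, of 858 tested, and the called snRNAs 136, of 849 tested.

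**Figure D3:**
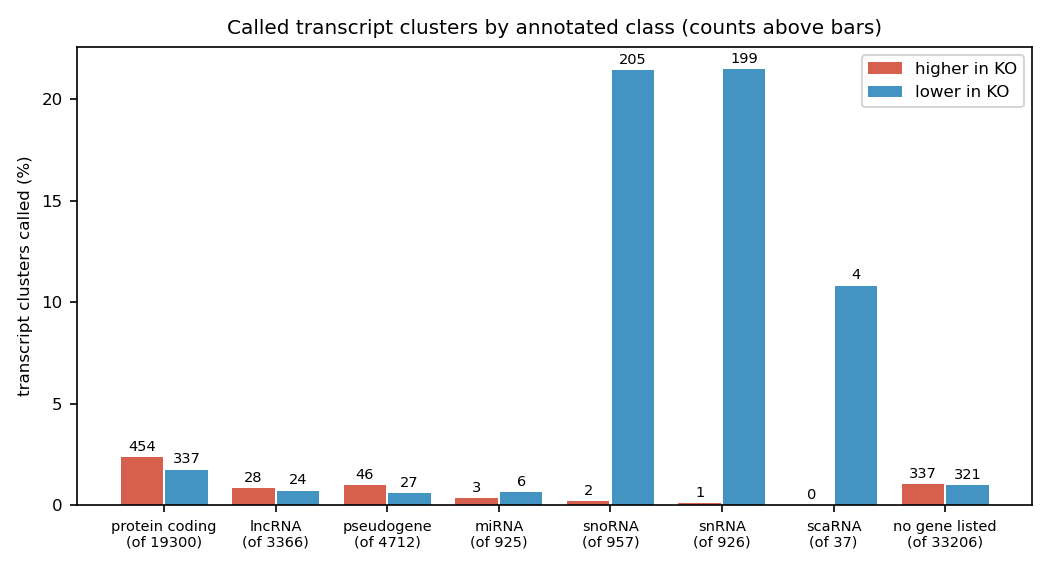
Percentage of transcript clusters called higher (red) or lower (blue) in KO in the pooled comparison, by annotated class, with the number called above each bar and the number tested under each class. The snoRNA and snRNA classes have 205 and 199 clusters called lower, against 2 and 1 called higher, while coding genes split 454 higher and 337 lower. Clusters with identical profiles are each counted.

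The 2 classes were also described by condition and by run of title numbers. Same-size differences numbered 200 of the 207 called snoRNAs and 106 of the 200 called snRNAs. Over 383 distinct snRNA profiles brighter than the negative controls, the median was -0.34 in sham and -0.046 after CCI among title numbers 1 to 24, and -0.076 in sham and -0.23 after CCI among 25 to 42. Over 377 such snoRNA profiles the pooled median was -0.070 among 1 to 24 and -0.063 among 25 to 42. Leaving out the 7 arrays named above, 75 snoRNAs and 14 snRNAs were called lower. The array mean of all snoRNAs lay between 7.32 and 7.44 in KO sham, against 7.41 and 7.51 in WT sham, and between 7.40 and 7.50 in KO CCI, against 7.41 and 7.56 in WT CCI, so the groups overlapped. The negative control medians overlapped too, from 6.61 to 6.75 in KO sham and from 6.58 to 6.71 in WT sham. The mean of mitochondrially encoded transcripts was 16.11 ± 0.20 in KO sham and 16.40 ± 0.05 in WT sham, and 16.40 ± 0.07 in KO CCI and 16.45 ± 0.20 in WT CCI (SD, n = 7 each), and its part in the small RNA differences was not tested.

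Most called snoRNAs lay in 1 place. Between Ube3a and Ndn on chromosome 7 lies the imprinted Prader-Willi and Angelman region, where arrays of box C/D snoRNA genes are carried in introns of the long Snhg14 transcript. Of 172 snoRNA and snRNA clusters there, 170 were called lower (98.8%) and 172 had negative differences, with a median of -0.24, of -0.24 in sham and -0.19 after CCI. These clusters held 79 distinct profiles and are copies of a few families, so they are not independent measurements. The host Snhg14 was 13.90 ± 0.09 in KO sham and 14.14 ± 0.07 in WT sham, and 13.62 ± 0.15 in KO CCI and 13.83 ± 0.10 in WT CCI, a pooled difference of -0.23 (SE 0.042, adjusted p = 0.00175). The flanking genes were not called, with -0.03 for Ube3a (adjusted p = 0.785) and 0.15 for Ndn (SE 0.23, adjusted p = 0.873). Outside the region 38 of 787 snoRNA clusters were called (4.83%), 36 lower.

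Larger falls were seen in some snoRNAs elsewhere, although the median over the 787 outside the region was -0.0012 and 399 of them were negative. The sets by symbol that follow were taken over all chromosomes, with the region not left out. Among 44 clusters with a Snord symbol, which are box C/D snoRNAs, 21 were called lower, none higher, and 41 had negative differences (median -0.27). Among 18 with a Snora symbol, which are box H/ACA snoRNAs, 1 was called lower and 10 were negative (median -0.0060). The share called over all snoRNA clusters was 21.6%. How many of either set lie in the region is not given here. Snord110 lay between 12.67 and 13.55 in KO sham, against 13.72 and 14.56 in WT sham, and between 12.47 and 14.09 in KO CCI, against 13.94 and 14.60 in WT CCI. The sham groups did not overlap, and the pooled difference was -0.83 (SE 0.13, adjusted p = 0.000141). Snord70 fell by 0.75, Snord111 by 0.71, Snord104 by 0.68 and Snord69 by 0.63. Snord69 was the brightest of these, at 17.31 ± 0.27 in KO sham and 18.09 ± 0.13 in WT sham, and 17.81 ± 0.19 in KO CCI and 18.31 ± 0.05 in WT CCI. Scarna9, a guide RNA of Cajal bodies, fell by 0.86 (SE 0.11, adjusted p = 8.13e-06), with 9.20 ± 0.25 in KO sham and 10.20 ± 0.20 in WT sham, and 9.25 ± 0.24 in KO CCI and 9.99 ± 0.46 in WT CCI. Snord55 fell by 0.78, by 1.03 in sham and by 0.54 after CCI. It was not counted as the same size, under a rule that also asks the interval of the dependence on injury to include 0. The predicted snoRNA Gm26109 fell by 0.99 with no overlap of the genotypes, from 7.19 to 8.37 on KO arrays and from 8.47 to 9.25 on WT arrays. Among 18 snoRNA hosts and long noncoding RNAs, Snhg14, Snhg5 (-0.20, adjusted p = 0.00723) and Norad (-0.11, adjusted p = 0.0453) fell, and with the 7 arrays left out Snhg5 was not called. The share called over all lncRNA clusters was 1.54%.

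The 9 called miRNAs were 3 that rose and 6 that fell, and all 9 had mature sequences in the RefSeq annotation of GRCm38.p6. The array probes report the locus, so signal from the precursor or host transcript cannot be told apart from the mature form. Sequences are shown 5′ to 3′, with the seed, bases 2 to 8, in capitals, for the members described next, which are the 2 called of the Mir344 family, the locus that fell most and the widely expressed Mir103-1.
mmu-miR-344h-3p: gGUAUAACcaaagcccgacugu
mmu-miR-344-3p: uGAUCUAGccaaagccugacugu
mmu-miR-6955-5p: aGGGCCUCaggacucaggagguga
mmu-miR-6955-3p: aCACCUGUcuccuuugcccaca
mmu-miR-103-3p: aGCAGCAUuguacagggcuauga
The 16 mature sequences of the 9 loci had 16 distinct seeds, so none of the called miRNAs shared a seed with another.

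The miRNAs that rose included 2 of the 10 measured members of the Mir344 family on chromosome 7, beside 0.973% called among all miRNA clusters. The family was picked after its values were seen. Of the 10, 8 had positive differences, but the members other than these 2 were not called. Mir344-2 was higher by 0.22 (SE 0.043, adjusted p = 0.0026), with 7.81 to 8.23 on KO arrays, against 7.66 to 7.92 on WT arrays. Mir344h-1 rose by 0.28 (adjusted p = 0.0135), by 0.18 in sham and 0.39 after CCI, at signals between 4.16 and 5.05 that lie below the negative control median. Their mature forms are 2 of those printed above. Mir6955 fell most, by 0.43 (SE 0.074, adjusted p = 0.000633), with 6.30 to 6.91 on KO arrays, against 6.85 to 7.74 on WT arrays. Mir103-1, whose mature form belongs to a widely expressed family that targets metabolic genes, fell by 0.22 (adjusted p = 0.0484) at signals between 4.69 and 5.54, also below the negative controls.

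A group of neighbouring genes on distal chromosome 2 fell together. It was picked after its values were seen, from the window of 15 consecutive coding or lncRNA genes with the most calls among 22104 such windows. From Gm14444 to Zfp931, the annotation listed 30 measured genes, which include zinc finger genes, predicted genes and pseudogenes. Many zinc finger proteins of this kind bind DNA and repress transcription. Of the 30, 19 were called lower, none higher, 28 had negative differences and the 19 were of the same size in both conditions, with a median of -0.24 over the 30. The 20 listed genes before the group and the 20 after it had 0 called each, with medians of -0.021 and 0.0018. Members share sequence, so probes may read several copies and the differences are not independent.

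**Figure D4:**
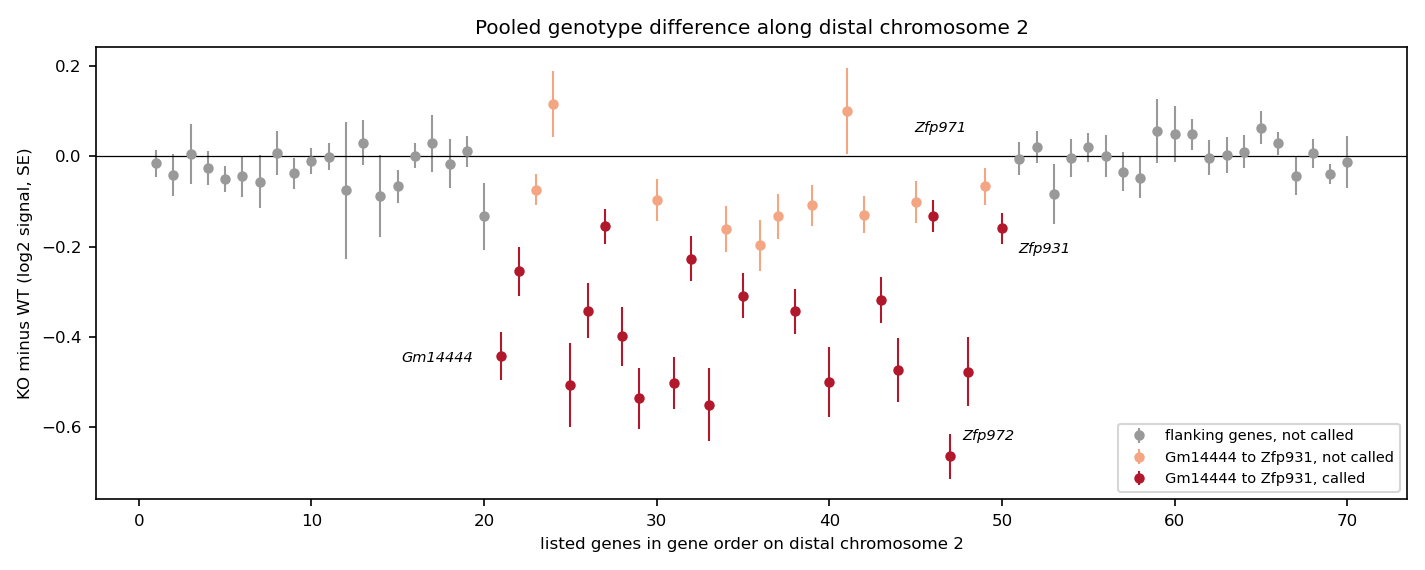
Pooled genotype difference (KO minus WT, log2 signal, bars are SE) of 70 listed genes in their order along distal chromosome 2. Genes from Gm14444 to Zfp931 are red where called and orange where not, and the 20 flanking genes on each side, in grey, lie near 0.

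Zfp972 had the largest fall of the 30, by 0.66 (SE 0.049, adjusted p = 8.71e-10). It lay between 9.17 and 9.59 on KO arrays, against 9.86 and 10.27 on WT arrays, and the difference was -0.70 in sham and -0.63 after CCI. Zfp931, at the end of the group, fell by 0.16 (SE 0.035, adjusted p = 0.00719), with 13.57 ± 0.07 in KO sham and 13.73 ± 0.07 in WT sham, and 13.43 ± 0.12 in KO CCI and 13.59 ± 0.07 in WT CCI. Zfp971, between them, differed by -0.07 (adjusted p = 0.561). Gm14415, on chromosome 2 and with no position matched to its symbol here, is not among the 30. It fell by 0.93 (adjusted p = 1.81e-07), with every KO array below every WT array. Among clusters on chromosome 2 with no gene listed, 69 were called lower and 24 higher of 2623 (3.55%), and 21 of them separated the genotypes on every array. The lowest of these had a difference of -1.07. These clusters were taken from the whole chromosome and were not placed relative to the group. Some of the 21 had identical values on the arrays, and the 2623 clusters held 2601 distinct profiles.

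The promoters of these 3 genes, of which Zfp972 and Zfp931 were called and Zfp971 was not, are shown because they share sequence. Each is the RefSeq sequence of GRCm38.p6 from 250 bases before to 50 after the annotated start, written 5′ to 3′ on the strand of the gene, and the capitals mark a run of 30 bases found in all 3. Zfp972 lies on the minus strand (chr2:177925601-177925900), Zfp931 on the minus strand (chr2:178078376-178078675) and Zfp971 on the plus strand (chr2:178023034-178023333).
Zfp972: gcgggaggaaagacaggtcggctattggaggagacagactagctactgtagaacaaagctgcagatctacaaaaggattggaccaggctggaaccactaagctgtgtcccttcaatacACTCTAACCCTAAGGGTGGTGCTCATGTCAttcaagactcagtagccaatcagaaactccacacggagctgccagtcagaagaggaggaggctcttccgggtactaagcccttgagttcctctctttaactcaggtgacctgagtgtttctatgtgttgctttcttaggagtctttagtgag
Zfp931: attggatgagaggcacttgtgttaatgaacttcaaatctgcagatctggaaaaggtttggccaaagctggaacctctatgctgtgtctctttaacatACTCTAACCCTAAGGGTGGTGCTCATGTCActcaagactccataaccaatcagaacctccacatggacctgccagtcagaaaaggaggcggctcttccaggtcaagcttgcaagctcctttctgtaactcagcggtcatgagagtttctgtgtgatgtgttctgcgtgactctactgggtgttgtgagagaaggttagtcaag
Zfp971: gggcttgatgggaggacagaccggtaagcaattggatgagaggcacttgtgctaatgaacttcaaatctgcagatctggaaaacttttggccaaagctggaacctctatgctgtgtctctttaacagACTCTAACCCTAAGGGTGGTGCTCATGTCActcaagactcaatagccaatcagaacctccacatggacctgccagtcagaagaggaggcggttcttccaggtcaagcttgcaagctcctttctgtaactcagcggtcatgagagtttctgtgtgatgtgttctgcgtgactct
The run ACTCTAACCCTAAGGGTGGTGCTCATGTCA, searched on both strands, was found in 33 of 32851 promoter windows (0.1%), which belong to 29 genes, all on chromosome 2. Of these genes 8 were measured and named here, and 4 of them were called lower, 0 higher and 8 had negative differences. Among all coding and lncRNA genes 3.75% were called. All 8 belong to the group of 30, which was picked because its members fell, so these counts give no separate support. Of the 12 genes of the group with a promoter window, 8 held the run. A match describes the letters of these windows only. The run starts 132 bases before the annotated start in Zfp972, 153 in Zfp931 and 123 in Zfp971. Probe sequences were not examined, so the run does not show whether the array tells these genes apart.

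Other noncoding and unnamed loci moved in both directions. Of 3366 lncRNA clusters 52 were called (1.54%), 28 higher and 24 lower, with 2810049E08Rik (0.62) and 1700121C08Rik (0.45) highest and Gm11009 (-0.40) lowest. Of 4712 pseudogene clusters 73 were called (1.55%), 46 higher and 27 lower, with Gm5424 (0.45) highest and Gm11488 (-0.82, adjusted p = 8.71e-10) lowest. Gm11488 and Gm20946 (-0.66) had every KO array below every WT array. Of 33206 clusters with no gene listed 658 were called (1.98%), 337 higher and 321 lower. The highest 3 of these, on chromosomes 4, 6 and 7, differed by 0.91, 0.84 and 0.77, and the lowest outside chromosome 2 was on chromosome 8, at -0.99.

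Of 39 potassium, sodium and calcium channel genes, 7 fell and none rose, and 25 had negative differences, with a median of -0.018, beside 4.1% called among all coding clusters. The list median was -0.016 in sham and -0.076 after CCI. Scn1a, the sodium channel of fast-spiking interneuron axons, fell by 0.39 (SE 0.069, adjusted p = 0.000825). It lay between 12.71 and 12.83 in KO sham, against 12.80 and 13.36 in WT sham, and between 11.66 and 12.32 in KO CCI, against 11.98 and 12.63 in WT CCI. Both pairs of groups overlapped. Scn8a, the main sodium channel of mature axon initial segments, fell by 0.22 (SE 0.036, adjusted p = 0.000498), with 12.89 ± 0.08 in KO sham and 13.06 ± 0.05 in WT sham, and 12.41 ± 0.11 in KO CCI and 12.67 ± 0.09 in WT CCI. Kcnc2, a potassium channel of fast-spiking cells, fell by 0.29 (adjusted p = 0.0074), Kcna1 by 0.23, Kcna2 by 0.21, Cacna2d1 by 0.19 and Kcnq3 by 0.17. Outside the list, the potassium channel subunit Kcnab3 fell by 0.53 (adjusted p = 0.000823) and Scn7a, a sodium-sensing channel, by 0.53 (adjusted p = 0.00086). Kcnab3 was not called with the 7 arrays left out. Leaving out the 7 arrays named above, 3 of the 39 were called and the list median was 0.0015, and among title numbers 25 to 42, 0 were called.

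Of 23 excitatory and layer markers, Neurod6 (0.35, adjusted p = 0.0194) and Fezf2 (0.33, adjusted p = 0.0254), transcription factors of excitatory neurons, rose and Rasgrf2 fell. The share called over all coding clusters was 4.1%. Neurod6 was 12.41 ± 0.15 in KO sham and 12.03 ± 0.16 in WT sham, and 11.79 ± 0.22 in KO CCI and 11.47 ± 0.36 in WT CCI. Neither Neurod6 nor Fezf2 was called with those 7 arrays left out. Of 24 inhibitory markers, the neuropeptide Npy rose by 0.29 (adjusted p = 0.018) and Kcnc2 fell. Of 32 synapse genes, Gria2, a subunit of AMPA receptors, rose by 0.17 (adjusted p = 0.00382), with 15.88 ± 0.08 in KO sham and 15.71 ± 0.04 in WT sham, and 15.53 ± 0.09 in KO CCI and 15.35 ± 0.09 in WT CCI.

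**Figure D5:**
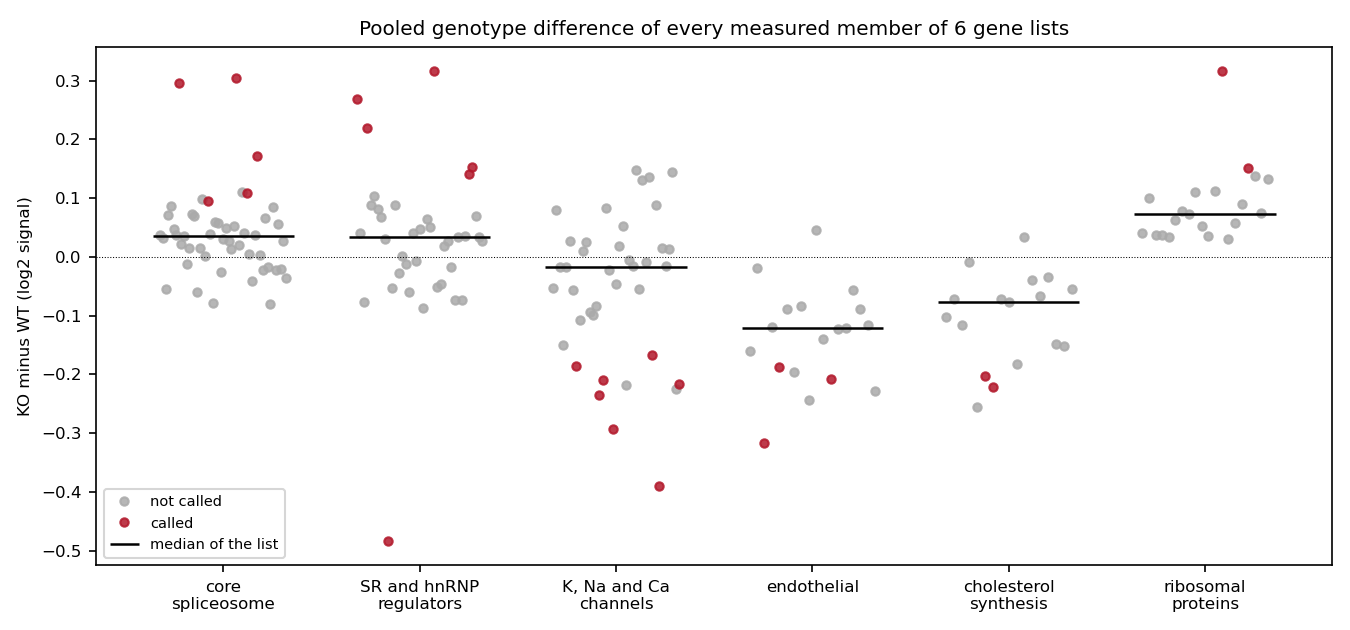
Pooled genotype difference (KO minus WT, log2 signal) of each measured member of 6 gene lists, with called members in red, others in grey and the list median as a black line. Called members are all higher for the core spliceosome and the ribosomal proteins and all lower for the channels, the endothelial list and cholesterol synthesis.

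Of 18 endothelial markers, 3 fell, none rose and 17 had negative differences, with a median of -0.12, beside 4.1% called among all coding clusters. This was unequal between conditions, with a list median of -0.05 in sham and -0.21 after CCI. Cdh5, the cadherin of endothelial junctions, was 7.87 ± 0.18 in KO sham and 8.01 ± 0.15 in WT sham, and 8.67 ± 0.25 in KO CCI and 9.16 ± 0.19 in WT CCI (SD, n = 7 each). Its pooled difference was -0.32 (adjusted p = 0.0119), and that of Pecam1, an endothelial adhesion protein, was -0.21 (adjusted p = 0.0223). Both had an unadjusted p under 0.05 for dependence on injury (0.0293 and 0.0167), which no adjusted test passed, so these are not same-size differences. Emcn fell by 0.19 (adjusted p = 0.0376). With the same 7 arrays left out, 1 of the 18 was called, and Cdh5 was not.

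Cholesterol synthesis had 2 genes lower and 16 of 17 negative (median -0.077, with -0.067 in sham and -0.13 after CCI). The 2 were the isomerase Idi1 (-0.22, adjusted p = 0.0055) and Hsd17b7 (-0.20, adjusted p = 0.011), which acts late in the pathway. Idi1 was 9.60 ± 0.13 in KO sham and 9.76 ± 0.14 in WT sham, and 9.30 ± 0.12 in KO CCI and 9.57 ± 0.11 in WT CCI. Of 50 apoptosis and p53 genes, Ccng1, a p53 target, fell by 0.21 (adjusted p = 0.019) and none rose. Among 16 homeostatic astrocyte genes Ntsr2, a neurotensin receptor of astrocytes, rose by 0.39 (adjusted p = 0.00978). Beside the counts of these lists, the share called over all coding clusters was 4.1%.

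Lists of injury and immune response had 0 genes called for genotype, where 4.1% of all coding clusters were called. These were 22 reactive astrocyte, 14 homeostatic microglia, 22 phagocyte and monocyte, 28 complement and cytokine, 26 interferon, 16 antigen presentation and 15 neutrophil genes, with medians between -0.048 and 0.0025. Over these 7 lists, limma had 8 of 143 genes at an unadjusted p under 0.05. The heat shock list (17), oxidative phosphorylation (33), immediate early genes (21) and the clock (21) had 0 called as well, with 2, 2, 1 and 4 genes at an unadjusted p under 0.05 by limma. Oligodendrocyte markers had 0 of 18 called, with a median of 0.24 in sham and -0.27 after CCI and -0.0030 in the pooled comparison.

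Markers of neighbouring tissue were set beside these results. Of 13 striatum and 12 choroid plexus genes, 0 were called, and 12 of the 12 choroid plexus genes had negative differences (median -0.18). The choroid plexus mean lay between 5.64 and 5.98 in KO sham, against 5.69 and 7.51 in WT sham, and between 5.64 and 7.43 in KO CCI, against 5.70 and 7.64 in WT CCI. The striatum mean lay between 7.02 and 7.81 in KO sham, against 6.93 and 7.32 in WT sham, and between 6.88 and 8.96 in KO CCI, against 6.83 and 8.82 in WT CCI. Of 9 hippocampus genes, Wfs1, an endoplasmic reticulum protein, fell by 0.35 (adjusted p = 0.0218), and of 10 thalamus genes, Ramp3, a receptor-modifying protein, rose by 0.19 (adjusted p = 0.0253), which missed the threshold when KO sham 33, WT CCI 14 or WT sham 2 was left out (adjusted p up to 0.053). The mean Ramp3 signal of 6.49 lay below the negative control median, and neither Wfs1 nor Ramp3 was called with the 7 arrays left out. The share called over all coding clusters was 4.1%.

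Some called genes did not have the same size in both conditions, although none passed the adjusted test for dependence on injury. Tmc1, a channel of hair cells, differed by -0.31 in sham and -0.05 after CCI (limma adjusted p = 0.713 for dependence on injury), and Igfn1, an immunoglobulin and fibronectin domain protein, by -0.36 and -0.06. Skint7 differed by 0.01 in sham and 0.31 after CCI. The mean signals of these 3 genes lay below the negative control median. Trak2, an adaptor for mitochondrial transport, differed by -0.01 in sham and -0.25 after CCI (limma adjusted p = 0.721), and Tbc1d9b by -0.02 and -0.20. Ccdc190 differed by 0.30 in sham and 0.04 after CCI. Rps15 was 8.50 ± 0.07 in KO sham and 8.06 ± 0.12 in WT sham, and 8.77 ± 0.12 in KO CCI and 8.57 ± 0.11 in WT CCI, a difference of 0.44 in sham and 0.20 after CCI.

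The differences were compared between the runs of title numbers 1 to 24 (16 arrays, 4 per group) and 25 to 42 (12 arrays, 3 per group), which the labels do not call batches. Within 1 to 24, 872 transcript clusters were called and 781 of them were among the 2081, and within 25 to 42, 74 were called and 72 of them were among the 2081. With the run as a covariate 2205 were called. Of the 58 named called genes apart from Rbm5, 58 had the same sign in both runs and 58 the same sign in both sexes, and 28 were larger in the first run. These genes and the 2081 clusters were called on all 28 arrays, which hold both runs and both sexes. Like signs and shared calls are therefore favoured by the choice and are no replication. In females alone 328 clusters were called and in males alone 204.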

How the data were processed

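Cortical RNA of 28 mice, 7 in each of 4 groups, was hybridised to 1-colour arrays from 100 ng RNA, per the labels' protocols. The authors deposited 1 log2 signal per transcript cluster and array. The log2 scale was read from the values, and no label or header states the normalization, so only differences between arrays within this table were used. Control probes were left out, which left 65956 clusters, of which 31015 had 1 gene symbol.

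A limma model (version 3.58.1, R 4.3.3) held 4 group means and sex. The genotype difference was averaged over sham and CCI, with Benjamini-Hochberg adjustment over all clusters and calls at an adjusted p under 0.05. Dependence on injury was a contrast of that fit, and dependence on sex came from a fit with 8 means. The scripts were tested on simulated data with 200 changed clusters. The animals are separate samples, and their number limits precision.

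The members and gene lists were chosen with earlier results of these data known. Genes named were, among called clusters with 1 symbol that were neither predicted models nor small RNAs, the 12 largest same-size differences and the 5 smallest p-values in each direction, in each list up to 2 genes per direction, up to 6 called genes that differed most between conditions, and, whatever their values, Rbm5 with its relatives Rbm6 and Rbm10 and its known targets Fas, Casp2 and Cflar. Small RNAs and unnamed clusters were the 3 largest of each kind per direction. Other names were picked after their values were seen.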

Additional observations from a re-analysis of the deposited data

Results flagged for a closer look

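Within groups of 7, single arrays lay far from the other 6 by Dixon's criterion in 21 of 272 group and measure combinations examined, where chance alone gives about 1 in 20. KO CCI 40 had 4 such values, 3 of genes and 1 of the choroid plexus mean. Its Chrdl1 signal of 7.5557 was lowest, its Tbc1d9b signal of 9.4631 was lowest, and its Cttnbp2 signal of 12.0416 was highest. WT CCI 35 was lowest for Dalrd3 (9.6518), Rbm28 (8.0891) and Sf3b3 (9.6131).

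Other KO arrays stood apart for single genes. KO CCI 21 was lowest for Csnka2ip (6.2199) and KO CCI 22 highest for Idi1 (9.5694). KO sham 10 was lowest for Idi1 (9.3238), KO sham 9 for Akr1c18 (8.1688), KO sham 12 for Igfn1 (6.2536) and KO sham 31 for Oacyl (6.1969). KO sham 11 was highest for Nvl (11.871) and KO sham 33 for P4htm (7.783).

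Among WT arrays, WT sham 3 was lowest for P4htm (7.7986) and highest for the mean of all snoRNAs (7.5139). WT sham 4 was lowest for Emb (9.2966), WT sham 25 lowest for Rbm6 (9.5222) and WT sham 26 highest for Sfrp1 (7.5999). The mean of choroid plexus markers was highest in KO CCI 40 (7.4328, next 5.9962) and in WT sham 25 (7.5112, next 6.3155).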

How the results depend on the processing

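No paired analysis was possible because every array title carries its own number and no number is shared between groups. Counts are given as pooled, sham, CCI and same-size calls, then snoRNAs and snRNAs called lower, against 2081, 847, 431, 1668, 205 and 199. Within title numbers 1 to 24 they were 872, 472, 125, 618, 166 and 146, and within 25 to 42 they were 74, 5, 15, 67, 3 and 0. In males alone they were 204, 20, 10, 190, 24 and 11, and in females alone 328, 93, 46, 270, 58 and 0. These settings hold fewer arrays. Leaving out the 7 arrays with raised striatum or choroid plexus markers they were 961, 740, 187, 727, 75 and 14, and at an adjusted p under 0.01 the pooled, sham, CCI, same-size and snRNA counts were 1006, 278, 181, 901 and 45. A size ratio of 0.7 left 1105 same-size differences. Array quality weights gave 1279 calls in sham, clusters brighter than the negative control median 1407 in sham and 662 after CCI, and leaving out the small RNA classes 487 in sham. With 1 cluster per distinct profile, 111 snoRNAs and 126 snRNAs were lower. Over clusters with 1 gene symbol, 1 was called for dependence on injury. The share of calls that were lower was 56.9%, 50.6% after quantile normalization, 60.6% with each array centred on its median and 47.2% without the small RNA classes.

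Leaving out each array in turn gave 1789 to 2090 pooled calls, 438 to 921 in sham, 298 to 508 after CCI, 1487 to 1735 of the same size, 202 to 209 snoRNAs and 148 to 238 snRNAs lower, and 0 to 1 calls for dependence on sex, the 1 without KO CCI 21. The sham count fell below 847 by over 1.5 times without KO sham 11 (438) or 12 (447) or WT sham 1 (524), 2 (488), 26 (520) or 27 (557). Of 62 genes followed besides Rbm5, none turned direction with a call. Most of these were chosen by calls on all 28 arrays, which favours like signs. Calls lost numbered 27 within 1 to 24, 48 within 25 to 42, 38 in males, 34 in females and 18 without the 7 arrays. Skint7, Trak2 and Ccdc190 lost their calls when any 1 of 12, 9 and 7 arrays was left out (adjusted p up to 0.0654, 0.0587 and 0.0616). The cause of these changes was not tested.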
